A study of Mus musculus with 4 samples.

Results

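The genes described here are nuclear genes whose proteins build the mitochondrial respiratory chain. They were taken as every gene with a measured region whose centre lay within 1000 bases of an annotated start site and whose symbol belongs to complex I (Nduf), complex II (Sdh), complex III (Uqcr, Uqcc and Cyc1), complex IV (Cox4 to Cox8 and Cox10 to Cox19) or complex V (Atp5), or is Cycs. The rule found 80 genes with 1 promoter region each, out of 11163 genes with a promoter region, 11533 promoter regions and 29121 regions in all. The values used were tag counts of ATAC-seq, an assay in which a transposase cuts and tags DNA wherever chromatin is open, so a higher count means a more accessible region. The same libraries also hold tags from the mitochondrial genome (chrM), and these are set beside the nuclear genes.

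The study compared hippocampal neurospheres, floating clusters of neural progenitor cells, from mice with and without the X-linked gene Fgf13, which encodes an intracellular member of the FGF family that binds sodium channels and microtubules. Both control cultures had the genotype hGFAPCre+, Fgf13+/y, and both Fgf13cko cultures hGFAPCre+, Fgf13 flox/y. All 4 cultures thus carried the Cre recombinase under the human GFAP promoter, which acts in radial glia and their descendants, and all came from P0 mice of strain C57BL/6. Cells were grown for 7 days with FGF-2 and EGF at 20 ng/ml each, and the cells of 1 mouse filled 2 wells. It is not stated if replicate cultures derive from different mice, and p-values here therefore cover only the variation among these 4 samples, which may be technical.

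The respiratory chain sits in the inner mitochondrial membrane. Complexes I and II take electrons from NADH and succinate, complex III and cytochrome c pass them on, and complex IV gives them to oxygen. Complexes I, III and IV pump protons, and complex V, the ATP synthase, uses the proton gradient to make ATP. A small number of core subunits is encoded by mitochondrial DNA and all others by the nucleus, so each of these complexes except complex II is assembled from the products of both genomes. Neural stem and progenitor cells are known to lean on glycolysis more than neurons do, and respiratory gene expression is known to increase along neuronal differentiation.

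Depth and composition differed between the libraries. The header of the count table gives 24.9 and 26.0 M tags for the controls and 16.8 and 13.1 M for Fgf13cko, while nuclear regions held 2.55 to 3.25 M tags in every library. Of the targeted gene, 4 regions were tested and 0 passed the threshold in edgeR's quasi-likelihood test, with adjusted p-values from 0.0848 to 0.960. Since the floxed exon is not named, these regions check nothing about the genotype. Among marker lists, 8 of 10 neural progenitor genes had a tested promoter, against 1 of 6 for microglia, 1 of 5 for endothelium and 0 of 4 for meningeal fibroblasts. The progenitor genes Fabp7 (log2 fold change 0.81) and Nes (0.80) and the neuronal genes Camk2a (1.41) and Syt1 (0.95) rose in Fgf13cko. The 4 tested neuronal promoters summed to normalised counts of 277 and 259 in the controls, compared with 504 and 475 in Fgf13cko cultures. The part of such shifts in the values of the respiratory genes was not tested, and in a mixed culture, fewer cells with an open region and a less open region per cell cannot be told apart.

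The promoters of these genes carry a small set of known sequence elements, shown here for members that the results below turn on. RefSeq (GRCm38.p6) promoter windows, from 250 bases before to 50 bases after the start, were matched for 68 of the 80 genes. Each sequence below runs 5′ to 3′ on the gene's own strand, from 150 bases before the start to 30 bases from it. Capitals mark matches on either strand to the element of NRF1 (GCGCATGCG), of the ETS factor GABPA (CCGGAAG) or of YY1 (AAGATGGC), factors known as activators of respiratory genes. Cox5b (chr1:36691337-36691516, plus strand) and Ndufb4 (chr16:37654339-37654518, minus strand) had the lowest adjusted p among members with lower counts in Fgf13cko. Cox8a (chr19:7217587-7217766, minus strand) and Ndufa3 (chr7:3617223-3617402, plus strand) were among the members with higher counts. Uqcr11 (chr10:80406792-80406971, minus strand) is shown because it holds both an NRF1 and an ETS match, and Uqcc2 (chr17:27133862-27134041, minus strand) for its YY1 match just behind the start.
Cox5b: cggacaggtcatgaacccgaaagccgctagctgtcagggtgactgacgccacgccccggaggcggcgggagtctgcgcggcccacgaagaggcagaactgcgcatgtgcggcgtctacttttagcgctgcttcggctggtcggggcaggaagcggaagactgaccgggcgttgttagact
Ndufb4: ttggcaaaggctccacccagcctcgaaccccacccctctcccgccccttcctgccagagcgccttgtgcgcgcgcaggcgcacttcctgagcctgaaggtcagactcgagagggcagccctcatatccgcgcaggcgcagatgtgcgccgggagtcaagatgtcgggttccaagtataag
Cox8a: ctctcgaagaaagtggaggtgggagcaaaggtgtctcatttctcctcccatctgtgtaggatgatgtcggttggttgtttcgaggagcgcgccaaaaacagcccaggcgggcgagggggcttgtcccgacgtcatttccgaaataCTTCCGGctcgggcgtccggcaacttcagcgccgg
Ndufa3: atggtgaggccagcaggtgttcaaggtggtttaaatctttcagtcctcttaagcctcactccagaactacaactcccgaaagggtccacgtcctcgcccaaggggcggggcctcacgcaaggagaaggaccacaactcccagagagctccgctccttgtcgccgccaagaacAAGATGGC
Uqcr11: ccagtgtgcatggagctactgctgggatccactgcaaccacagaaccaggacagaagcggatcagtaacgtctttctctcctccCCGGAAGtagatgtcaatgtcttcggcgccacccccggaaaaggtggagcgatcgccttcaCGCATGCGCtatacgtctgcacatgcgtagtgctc
Uqcc2: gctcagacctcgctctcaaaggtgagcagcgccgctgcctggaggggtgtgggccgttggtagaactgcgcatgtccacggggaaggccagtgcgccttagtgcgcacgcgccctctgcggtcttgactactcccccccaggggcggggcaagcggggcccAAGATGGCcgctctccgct

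The NRF1 letters stood in 8 of 68 member windows (11.8%), against 4.23% of the 8875 genes with a tested promoter and a window. The YY1 letters stood in 9 of 68 (13.2%), against 4.96%. In all 9 the YY1 match lay behind the start, from 11 to 38 bases into the transcript, whereas among all genes with such a match 57.7% had one behind the start. The ETS letters, some of which sit in the same promoters as an NRF1 match, were found in 17 of 68 (25.0%), against 19.1%. The SP element GGGCGG was less frequent in member windows, at 52.9% against 71.3%, and the letters CCAAT (41.2% against 44.2%) and TATAAA (8.82% against 8.27%) were found at like shares. The median GC content was 58.3% in member windows and 61.0% in all. No member window held all 3 of the NRF1, ETS and YY1 matches. The 8 members with an NRF1 match had a median log2 fold change of 0.053 and the 60 without one -0.096. The 9 with a YY1 match and the 59 without one both had -0.090, and 0 members with a window passed the threshold in edgeR. A match is a description of the letters only.

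Tags of the mitochondrial genome were scarcer in Fgf13cko, whereas the share of promoter tags on the nuclear genes of the chain differed by less than the spread of its libraries. The 2 measured chrM regions span bases 93 to 6636, with the ribosomal RNA genes, ND1, ND2 and most of COX1, and bases 10808 to 16171, with most of ND4, ND5, ND6, CYTB and part of the control region behind them. Of the tags in regions they took 67.7% and 68.4% in control cultures and 38.5% and 31.5% in Fgf13cko cultures. The groups did not overlap, with means of 68.0% ± 0.533 (SD, n = 2) and 35.0% ± 5.00, but an exact two-sided permutation test of 2 against 2 libraries cannot go below 0.333, which is the p found. In the region fit the first chrM region had a log2 fold change of -1.90 (SE 0.34, adjusted p = 0.0131) and the second -1.91 (SE 0.34, adjusted p = 0.0129). Without control replicate 1 the second region had -1.94 (adjusted p = 0.306), and without control replicate 2 -1.88 (adjusted p = 0.345). A fit with a lone control has less power, and what the loss of the call rests on was not tested. The size of the difference was similar in both. With an offset fitted on abundance its value shrank to -0.16 (adjusted p = 0.0562), since these regions are themselves the most abundant of the table. ATAC tags on chrM come from mitochondrial DNA that stays in the preparation, so fewer mitochondrial genomes per cell and less carry-over cannot be told apart.

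The 80 nuclear promoters, by contrast, held 0.546% and 0.550% of all promoter tags in the controls and 0.496% and 0.547% in Fgf13cko cultures. The ratio of the group means was 0.951, Fgf13cko 2 lay at the level of the controls, and the exact permutation test gave p = 0.667. As a share of all nuclear region tags the members held 0.312% and 0.320% against 0.278% and 0.279%, a ratio of 0.880. Promoters as a whole took 57.1% and 58.3% of nuclear tags in control cultures, 56.1% in Fgf13cko 1 and 50.9% in Fgf13cko 2, so the low share of Fgf13cko 1 lies in the members' part of promoter tags and that of Fgf13cko 2 in the promoters' part of nuclear tags. For each tag on a member promoter there were 671 and 676 chrM tags in the controls and 225 and 165 in Fgf13cko, a 3.45-fold lower ratio. This is not particular to the members. For each tag in any nuclear region there were 2.09 and 2.17 chrM tags in the controls and 0.627 and 0.459 in Fgf13cko, a 3.92-fold lower ratio. The sums of the members' normalised counts were 8466 and 8592 in the controls, compared with 7902 and 8462 in Fgf13cko cultures. Both sets of tags come from the same libraries, and a lower chrM share leaves more tags to the nucleus.

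**Figure D1:**
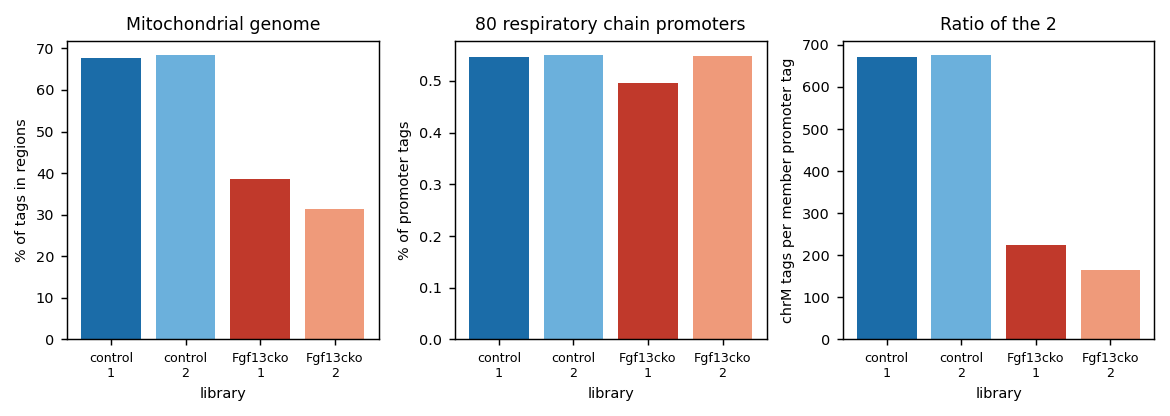
Bars give 1 value per library: the chrM share of region tags in % (left), the share of promoter tags on the 80 respiratory chain promoters in % (middle) and chrM tags per member tag (right). The chrM share falls from 67.7% and 68.4% to 38.5% and 31.5%, while the member share stays between 0.496% and 0.550%.

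The mitochondrial genes between the chrM regions, COX2, ATP8, ATP6, COX3, ND3 and ND4L, lie in no region of the table, which kept only regions with a peak in every library. In the authors' deposited peak lists both controls had a further chrM peak there, from 7866 to 9930 and from 7854 to 9928. Fgf13cko 2 had a short peak from 9459 to 9868, and Fgf13cko 1 had none between the outer peaks. Both Fgf13cko libraries held fewer chrM tags than either control, and the part of this in the peak differences was not tested. Whether tags of this stretch also map elsewhere in the genome was not tested either, so the origin of the gap is not known. The authors' fold enrichment of the chrM peaks over local background was low in every library, from 1.08 to 1.64. At the member promoters the authors' fold enrichment had medians of 5.81, 6.01, 5.96 and 5.54 in control 1, control 2, Fgf13cko 1 and Fgf13cko 2, and all 80 members had a peak in each of the 4 lists.

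Across the nuclear members, accessibility was largely alike in both groups. In edgeR's quasi-likelihood test on all 11116 tested promoters, 1 of the 80 members rose (1.25%), against 1.95% of all promoters, and 0 fell, against 0.477%. The member that rose was Uqcrc2. At an unadjusted p below 0.05 there were 13 members, 6 higher and 7 lower. That is 16.2% of the members, against 19.3% of all promoters, of which 11.7% were higher and 7.54% lower. DESeq2 called 0 members in either direction, against 1.36% risen and 0.391% fallen among the promoters to which it gave an adjusted p. Several members, among them Cox17, Ndufa9 and Ndufa1, got no adjusted p from it and could not be called. Both Fgf13cko libraries lay above both controls for 17 members, where 26.2% of all promoters did so, and below both controls for 24 members, where the figure was 25.1%. The other 39 overlapped. The median log2 fold change was -0.082 for the members and -0.0073 for all promoters, with 33 positive and 47 negative values. Scaling by the header's tag totals, which include the chrM tags, moves every promoter up: the median became 0.37 for the members and 0.43 for all promoters, 68 of 80 members were then positive, and 11 rose and 0 fell, against 23.7% and 0.117% of all promoters. Relative to all promoters the members' median stood at -0.065 there, and at -0.074 in the main scaling.

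**Figure D2:**
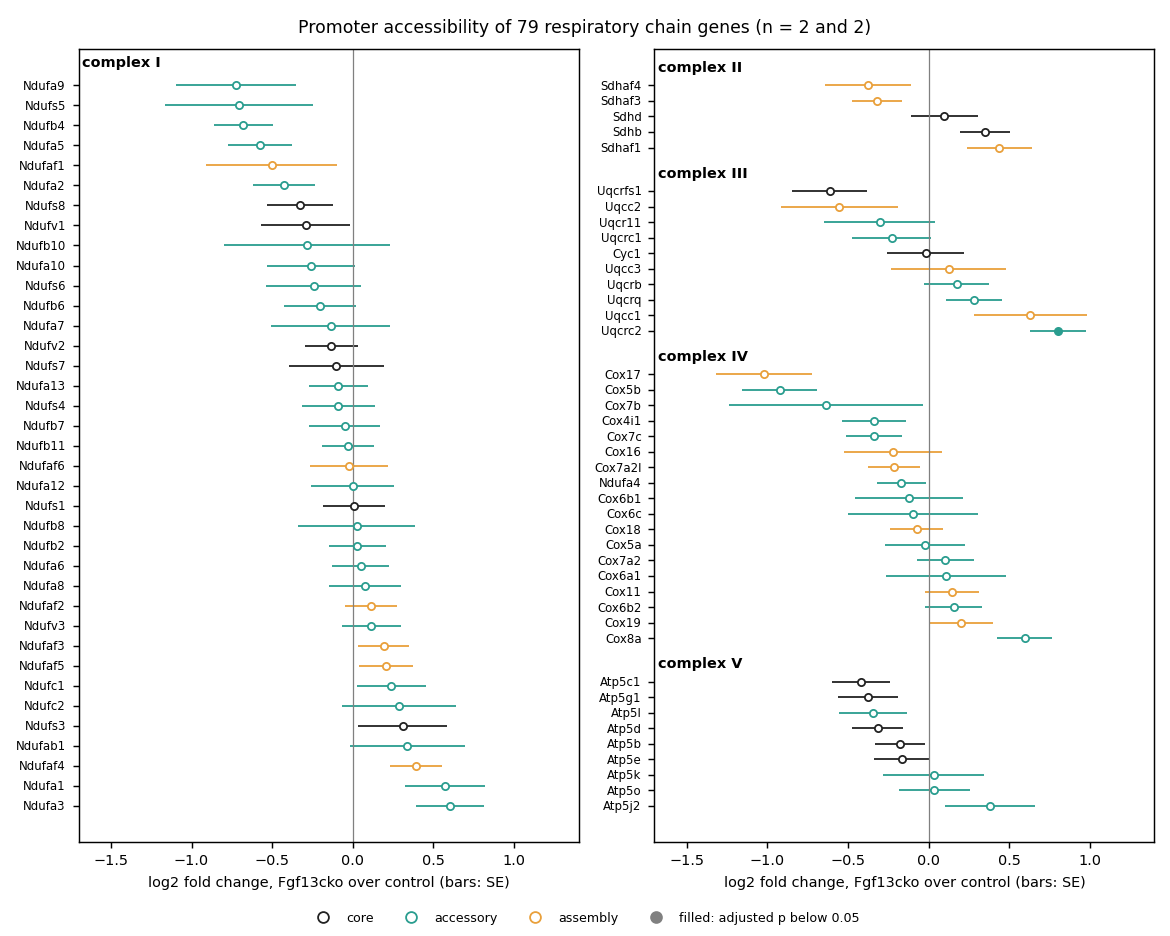
Each point is the log2 fold change of 1 of the 79 member promoters shown, Fgf13cko over control, with its standard error, grouped by complex and coloured by role (core, accessory, assembly factor). Uqcrc2, the filled point at 0.80, is the member past the threshold, and the others scatter on both sides of 0 from -1.02 to 0.63.

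Core subunits had the highest median accessibility of the 3 roles, with wide overlap. In the controls the median normalised count per kb of region was 169 for the 16 core genes, which carry the redox centres of complexes I to III or form the catalytic head, central stalk and c-ring of complex V, against 91.6 for the 46 accessory genes and 103 for the 18 assembly factors. All tested promoters had a median of 97.7, and 5 of the 16 core genes lay below it. The highest member was Atp5g1, a gene for the c-ring of ATP synthase, at 409 per kb, followed by Cox7c (274), Cox18 (262) and Atp5c1 (252). The lowest were Ndufa1 (31.9), Ndufb8 (36.2) and Uqcc1 (36.9). The core genes also had the lowest median log2 fold change of the 3 roles, at -0.17 with 12 of 16 negative, against -0.040 for accessory genes and 0.046 for assembly factors. With the offset on region width the core median was -0.16 and with header totals 0.27, where all promoters stood at 0.43.

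Complex I, which oxidises NADH, gave 38 members, and 0 passed the threshold. Their median log2 fold change was -0.040, with 16 positive and 22 negative, a side that turned with the offset on region width (0.019). Of the 7 core genes, Ndufs1, which encodes the largest iron-sulfur subunit, had normalised counts of 104 and 109 in control cultures and 119 and 94.8 in Fgf13cko cultures. The groups overlapped. Ndufv1, the subunit that binds FMN and NADH, had 122 and 139 against 73.4 and 141. Here Fgf13cko 1 was low and Fgf13cko 2 at the control level.

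Among the 25 accessory genes of complex I, Ndufb4, a subunit of the membrane arm, had 139 and 145 in the controls, compared with 94.5 and 82.7 in Fgf13cko cultures. Both Fgf13cko libraries were lower, with a log2 fold change of -0.68 (SE 0.18, adjusted p = 0.0759). Ndufa9, which sits near the quinone site, had 58.0 and 39.2 against 22.8 and 37.6 (-0.72, adjusted p = 0.312). Ndufs5 had 36.1 and 34.3 against 12.2 and 31.2 (-0.71, adjusted p = 0.433), and in both genes the low value was that of Fgf13cko 1. On the other side, Ndufa3 had 61.0 and 67.7 against 90.6 and 103 (0.60, SE 0.21, adjusted p = 0.145). Ndufa1, an X-linked gene for a small membrane subunit, had 63.4 and 44.6 against 79.5 and 79.8 (0.57, adjusted p = 0.230). These groups did not overlap, but the differences did not pass the threshold. The Ndufa1 region also holds the start of Rnf113a1 on the other strand, and its tags cannot be divided between them. Ndufb8, another membrane arm subunit, had 29.3 and 36.8 against 30.02 and 36.4. The 6 Ndufaf assembly factors had a median of 0.15, with Ndufaf4 the smallest p (143 and 143 against 200.1 and 176, 0.39, adjusted p = 0.206).

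Complex II, succinate dehydrogenase, is the complex with no mitochondrially encoded subunit, and 5 of its genes were members. Sdhb, the iron-sulfur subunit, had 152 and 147 in control cultures and 182 and 199 in Fgf13cko cultures, with a log2 fold change of 0.35 (SE 0.16, adjusted p = 0.249). Sdhd, a membrane anchor, had 71.2 and 81.0 against 79.5 and 83.2. The first pair of groups lay apart and the second overlapped, and neither passed. The assembly factors Sdhaf1 (0.44), Sdhaf3 (-0.32) and Sdhaf4 (-0.38) went in both directions without passing.

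Complex III passes electrons from ubiquinol to cytochrome c. Uqcrc2, one of its large matrix-side subunits, was the member that rose. The region (mm10, chromosome 7, 120634710 to 120635732, a promoter by its annotation) had normalised counts of 104 and 119 in the controls, compared with 210.1 and 181 in Fgf13cko cultures. Both Fgf13cko libraries were above both controls, with a log2 fold change of 0.80 (SE 0.17, adjusted p = 0.0335). Without control replicate 1 the value was 0.71 (adjusted p = 0.588) and without control replicate 2 it was 0.90 (adjusted p = 0.538), neither past the threshold, in fits with a lone control that called 0 promoters in all. In the fit of single regions Uqcrc2 did not pass either (0.75, adjusted p = 0.0678), and 0 member promoters rose there, against 1.33% of all promoter regions. DESeq2 gave 0.80 (adjusted p = 0.118), and scaling factors from all regions 0.75 (adjusted p = 0.111).

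Uqcrc2 lies in a stretch of chromosome 7 where values were higher than elsewhere. On chromosome 7 the 803 tested promoters had a median of 0.20 on the log2 scale, where the medians of 19 other chromosomes ran from -0.099 to 0.078. Within 5 Mb of Uqcrc2 there were 51 other tested promoters, with a median of 0.43, of which 47 were positive and 5 passed the threshold. Both Fgf13cko libraries showed it, with medians of 0.42 and 0.34 against the mean of the controls, and so did 88 distal regions of that stretch, at 0.33. The rise at Uqcrc2 exceeds the median of its neighbours, but its part that is shared with them was not tested. Of the 7 members on this chromosome, 6 had positive values, among them Ndufa3, whose part of the chromosome (the first 10 Mb) had a median of 0.12. Ndufab1, the mitochondrial acyl carrier protein, lies near Uqcrc2 and had 115 and 105 against 86.7 and 191, with the Fgf13cko libraries on opposite sides of the controls (0.34, adjusted p = 0.663).

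The other subunits of complex III did not pass. Uqcrfs1, the Rieske iron-sulfur protein, had 105 and 127 in control cultures and 59.5 and 91.9 in Fgf13cko cultures (-0.61, SE 0.23, adjusted p = 0.174). Cyc1, cytochrome c1, had 74.6 and 78.1 against 59.5 and 89.6, and Uqcrc1, the partner of Uqcrc2, had 61.0 and 69.0 against 60.6 and 50.3. The pair of matrix-side subunits thus had values of opposite sign, 0.80 and -0.23, which were not tested against each other. The assembly factor Uqcc1 had 34.6 and 26.9 against 55.6 and 39.9 (0.63, adjusted p = 0.349), with no overlap but few tags.

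**Figure D3:**
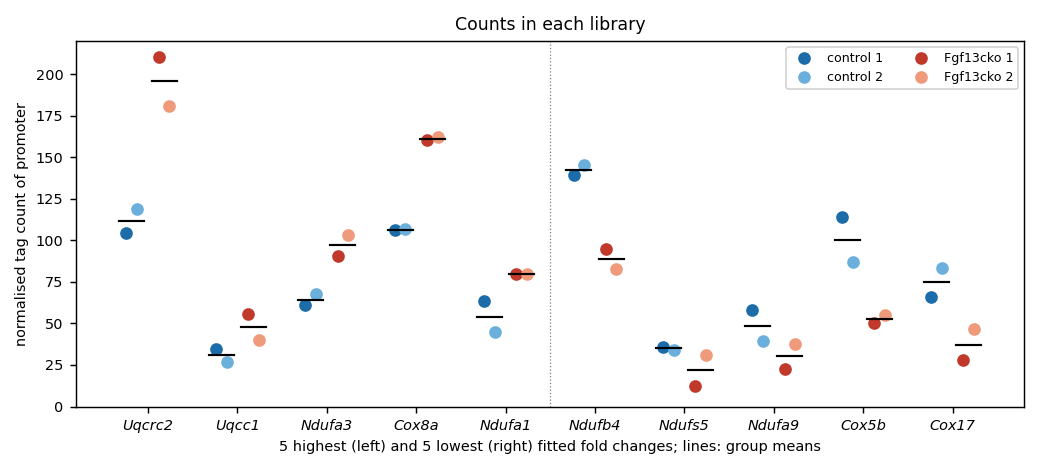
Points are normalised promoter counts in each of the 4 libraries and lines the group means, for the 5 members with the highest and the 5 with the lowest fitted log2 fold change. Cox8a and Ndufb4 show close replicates in both groups, while the Fgf13cko libraries lie apart at Ndufs5 (12.2 and 31.2) and Cox17 (27.8 and 46.8).

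Complex IV, cytochrome c oxidase, holds its redox centres in mitochondrially encoded subunits, so its 18 nuclear members are accessory subunits and assembly factors. The lowest values of all members were found here. Cox5b, a zinc-binding subunit of the matrix side, had 114 and 86.8 in the controls, compared with 50.03 and 54.9 in Fgf13cko cultures. Its log2 fold change was -0.92 (SE 0.23, adjusted p = 0.0597), and the groups did not overlap. In the fit of single regions, where spread and scaling come from all regions, it was the member promoter that fell (-0.99, adjusted p = 0.0409), where 0.725% of all promoter regions fell. Cox17, the chaperone that delivers copper to complex IV, had 65.8 and 83.4 against 27.8 and 46.8 (-1.02, SE 0.30, adjusted p = 0.0932). Cox8a, the common isoform of the smallest subunit, had 106 and 107 against 160.1 and 162 (0.60, SE 0.17, adjusted p = 0.0883). Replicates were close here, and both Fgf13cko libraries stood above both controls.

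Complex IV has tissue isoforms of several subunits, and some of them were measured. Cox4i1, the isoform of subunit 4 used at normal oxygen, had 95.1 and 92.1 in control cultures and 73.9 and 75.1 in Fgf13cko cultures (-0.34, SE 0.20, adjusted p = 0.379). Cox4i2 had no promoter window to look up and no promoter region under its name. Cox6a1 had 78.0 and 45.4 against 45.0 and 87.3, and Cox7a2 had 123 and 115 against 120.1 and 137, both with overlap. Of subunit 6b, the common isoform Cox6b1 had 34.1 and 44.6 against 36.1 and 36.4, and the testis isoform Cox6b2 134.6 and 154.5 against 179 and 142.8, and both pairs of groups overlapped. Per kb of region the controls had 58.9 at Cox6b1 and 99.1 at Cox6b2. The region of Cox6b2 is annotated as the end of another transcript, and both genes were chosen after their values were seen. Of the muscle-type isoforms, Cox7a1 had a peak at its start in both Fgf13cko lists and in neither control list, and Cox8b in 1 Fgf13cko list, so both fall outside the table. Cox7a2l, which tethers complexes III and IV, had 173 and 202 against 161 and 163 (-0.21, adjusted p = 0.505). Ndufa4, now counted as a subunit of complex IV, had 198 and 215 against 184 and 182, and Cox5a had 59.0 and 57.8 against 53.4 and 61.3. Cox7c had 215 and 169.8 against 158 and 145 (-0.34, adjusted p = 0.309), and the assembly factor Cox18 had 214 and 264 against 212 and 244. The median of the 18 was -0.11, with 6 positive and 12 negative, and 0.031 with the offset on region width.

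Complex V had the lowest median of the 5 complexes, at -0.18 over 9 genes, 6 of them with both Fgf13cko libraries below both controls, as 25.1% of all promoters were. None passed the threshold in edgeR, and 1 of 9 had an unadjusted p below 0.05, where 19.3% of all promoters did. The 6 include all 5 members that belong to the catalytic head, central stalk and c-ring. Other genes of these parts, Atp5a1, Atp5g2 and Atp5g3, were not members. The region at Atp5g2 had a positive value in the region fit (0.14). Atp5b, the catalytic beta subunit, had 207 and 196 in the controls, compared with 183 and 172 in Fgf13cko cultures (-0.18, SE 0.15). Atp5c1, the rotating gamma subunit, had 223 and 260.2 against 209 and 153 (-0.42, SE 0.18, adjusted p = 0.226). Atp5g1 had 290.2 and 276 against 173 and 264, with the lower value again in Fgf13cko 1 (-0.38, SE 0.19, adjusted p = 0.304). The Atp5c1 region also holds the start of Kin on the other strand. The sum over the 9 promoters was 1343 and 1452 in control cultures and 1154 and 1207 in Fgf13cko cultures. Set against the median of all promoters, it stood at -0.17 here and between -0.18 and -0.15 under the other scalings and DESeq2, although with header totals it was itself positive (0.26).

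The width of the region went with the members' values in 1 library. Widths come from the merged peaks of these same libraries and are thus not independent of the counts. Whether the relation is technical was not tested. Among the 80 promoters, the log2 ratio of Fgf13cko 1 to the mean of the controls correlated with the log2 width of the region (Pearson's r = 0.67, across genes, which are not independent replicates), while the ratio of Fgf13cko 2 did not (r = -0.021). Over all 11116 promoters the values were 0.57 and -0.014. Members were narrower than promoters in general, with a median width of 884.5 bases against 1012.5. In the 40 narrower members the median log2 ratio to the controls was -0.45 in Fgf13cko 1 and 0.057 in Fgf13cko 2, and in the 40 wider ones it was -0.012 and -0.0035. The low values of Fgf13cko 1 at Ndufs5 (594 bases), Cox17 (590 bases) and Ndufa9 (682 bases) are thus found at narrow regions. With an offset on width in each library, an alternative chosen after the data were seen, the members' median was 0.014 and 4 rose and 7 fell. Those that rose were Uqcrc2 (0.77), Cox8a (0.62), Ndufa3 (0.67) and Ndufab1 (0.55). Those that fell were Cox5b (-0.74), Cox17 (-0.73), Ndufb4 (-0.65), Uqcrfs1 (-0.62), Ndufa5 (-0.52), Atp5c1 (-0.43) and Atp5d (-0.39). Over all promoters this fit called 864 higher (7.77%) and 693 lower (6.23%), against 217 and 53 without the offset.

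**Figure D4:**
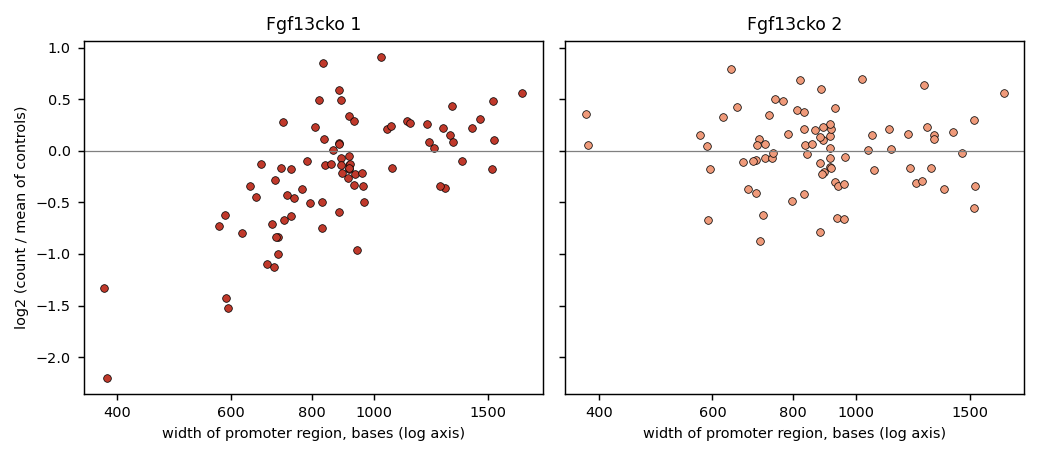
Each point is 1 of 80 member promoters, with the width of its region in bases on a log axis and the log2 ratio of its count to the mean of the controls, for Fgf13cko 1 (left) and Fgf13cko 2 (right). Ratios in Fgf13cko 1 are lower at narrow regions (r = 0.67), and those in Fgf13cko 2 show no such slope (r = -0.021).

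The choice of Fgf13cko library matters for the counts. Without Fgf13cko replicate 1, 5 members rose and 4 fell, against 5.88% and 4.40% of all promoters, and the median was 0.033. Without Fgf13cko replicate 2, 4 rose and 14 fell, against 12.4% and 12.5% of all promoters, and the median was -0.17. Uqcrc2 and Cox8a rose and Cox5b and Ndufb4 fell in both of these fits, in each of which the lone Fgf13cko sample is taken to vary like the controls.

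The rule does not see every gene of the family. RefSeq lists 113 genes with a matching symbol, of which 33 were not members, and 24 of these had a promoter window. For 19 the window lay in a measured region named for a neighbour or another start. Sdha, the flavoprotein of complex II, lies in the region named for Ccdc127, Cycs, cytochrome c itself, in that of 5430402O13Rik, and Atp5j in that of Gabpa, the gene of the ETS factor above. None of the 19 regions passed the threshold in the region fit, with log2 fold changes from -0.60 (Ndufb3) to 0.44 (Cox14) and a median of -0.049. Sdha had normalised counts of 101 and 113 against 123 and 102, and Cycs 184 and 188 against 168 and 121.5 (-0.36, adjusted p = 0.351). Atp5g2 (0.14) and Atp5pb (-0.24) were also among the 19. The other 5 windows lay in no region: Atp5g3 had a peak in 3 of the 4 lists, Cox7b2 and Ndufb4b in none. Sdhc, Cox6a2, Ndufa4l2 and Atp5a1 had no window to look up. Shared regions were also found among the members, since 15 of 80 (18.8%) held the start of another gene, against 15.7% of all promoter regions.

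Other regions nearest to these genes were also measured. There were 40 such distal regions, assigned to 28 genes by the nearest start site, which does not show that they act on them. In the region fit 6 of 40 rose, against 9.42% of all distal regions, and 1 fell, against 2.23%. The median log2 fold change was 0.29 for the 40 and 0.092 for all distal regions, with 24 positive. The largest was an intergenic region 31.9 kb from Cox7a2l (chromosome 17, 83545677 to 83546873), at 62.6 and 51.9 in the controls, compared with 294 and 241 in Fgf13cko cultures (2.22, SE 0.21, adjusted p = 0.00384). The Cox7a2l promoter itself stood at -0.21. The other regions that rose lay nearest to Atp5e (1.5), Atp5h (1.24), Ndufc2 (1.05), Atp5o (1.05) and Ndufb7 (0.93), and a different region nearest to Atp5o, in an intron of another gene, fell (-1.39). The region near Ndufc2 lies on chromosome 7, where 100 distal regions within 5 Mb of that gene had a median of 0.26.

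Genes that serve the chain without being part of it were read from 10 lists. Of 15 tested regulators, 1 rose in edgeR (6.67%) and 0 fell, against 1.95% and 0.477% of all promoters. It was Ppargc1a, the coactivator PGC-1 alpha that promotes mitochondrial biogenesis. Ppargc1a had 203 and 238 in control cultures and 368 and 339.9 in Fgf13cko cultures (0.68, SE 0.15, adjusted p = 0.0394). At an unadjusted p below 0.05 there were 2 regulators (13.3%), against 19.3% of all promoters. Nrf1 (-0.18), Gabpa (0.058), Yy1 (-0.20) and Esrra (0.015) did not pass. Among 18 genes that maintain and express mitochondrial DNA, 0 rose and 0 fell in edgeR, with 2 higher and 2 lower at an unadjusted p below 0.05, or 22.2% against the 19.3% of all promoters. Tfam, the protein that packages mitochondrial DNA, had 194 and 173.5 against 125 and 171 (-0.31, adjusted p = 0.384), and Polg, its polymerase, 202 and 194 against 339.7 and 244 (0.56, adjusted p = 0.114). Of 20 glycolysis and lactate genes 1 rose, Ldhb, a lactate dehydrogenase subunit (138 and 134 against 268 and 199, 0.78, adjusted p = 0.0413), and the median was 0.19.

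The remaining 7 lists had 0 members past the threshold in edgeR. They were other assembly factors (21 tested, median -0.0017), the TCA cycle and pyruvate dehydrogenase (16, 0.0053), ubiquinone synthesis (10, -0.029), fission and fusion (8, -0.31), mitophagy (9, -0.018), the mitochondrial ribosome (59, 0.00076) and protein import (18, -0.091). At an unadjusted p below 0.05, which 19.3% of all promoters reached, they had 7, 3, 1, 1, 0, 8 and 4 members. The smallest adjusted p-values were those of Mrps9 (-0.61, 0.0749), Coa5 (-0.64, 0.0823) and Tomm6 (0.54, 0.0988). The fission and fusion list had 7 of 8 values negative, with Mfn2 (0.33) the exception.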

How the data were processed

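Accessible chromatin was measured by ATAC-seq in 2 control and 2 Fgf13cko neurosphere cultures, grouped and numbered by the sample titles. Per the file headers, the deposited values are estimated counts per merged broad peak (mm10), as HOMER wrote them without normalisation. Every value is a multiple of 0.5, 50.2% are whole, and values were rounded before any test. Bowtie2, MACS2, HOMER, Picard and DESeq2 are named in the submitters' processing notes. Their versions, duplicate removal and any transposase shift of reads were not given in the sources used here. In the peak lists the authors deposited a score, a fold enrichment (a ratio over local background) and -log10 p and q values per peak. These are the authors' own, and the fold was used only to describe peaks within a list.

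For each gene, counts were summed over regions at most 1000 bases from the start site. Counts were fitted with edgeR 4.0.16 in R 4.3.3 (robust glmQLFit, glmQLFTest, two-sided, TMM, filterByExpr on the groups), with Benjamini-Hochberg adjustment over all 11116 tested promoters and a threshold of 0.05. Single regions, chrM included, were fitted alike. All 80 members passed the filter on low counts. Normalised counts are tags divided by the relative effective library size, and errors are SD over libraries or SE of the fit. Member promoters held medians of 96.0 and 111 tags in the controls and 77.0 and 77.8 in Fgf13cko, which limits precision at narrow regions. The common biological coefficient of variation was 0.127. Tested on simulated data for the promoter comparison over 11116 promoters, the fit recovered 37 of 50 promoters at a log2 fold change of -1, 41 of 50 at 1 and all 50 at -2 and at 2, with 3 unchanged promoters called.

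The alternatives were other scalings (library size, header totals, abundance offset), DESeq2 1.42.0, limma-voom (limma 3.58.1), other filters and promoter definitions, a replicate block and leaving out each library. An offset on region width, factors from all regions and a crossed pairing were added after the data were seen. The members named are those past the threshold, the 5 highest and 5 lowest fold changes, the 5 highest and 3 lowest counts per kb, the smallest p of each complex and of the assembly factors, and a set fixed by role, 30 in all, and from each other list the called genes or the smallest p. Other genes are named for contrast after their values were seen, and the values of some named genes are not reported here. The members and the lists were chosen with earlier results of these data known.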

Additional observations from a re-analysis of the deposited data

How the results depend on the processing

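With 2 libraries per group and medians near 100 tags per member promoter, a 2-fold change was recovered only in part on simulated data, and the counts of calls moved with the settings. Over the 30 named members and all alternatives, 426 of 497 fold changes kept their direction and their side of the threshold, 4 no longer passed it, 36 newly passed it and 31 changed sign. The cause of each change was not tested, except where fewer samples or another scaling factor is the alternative itself.

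Scaling by header tag totals gave 11 member promoters risen and 0 fallen, 2629 and 13 among all promoters, and a member median of 0.37. In the region fit it gave 6 member promoters risen and 0 fallen, and 13 distal regions risen and 0 fallen. Under it the values of these named members turned positive: Atp5b (0.26), Atp5g1 (0.092), Cox18 (0.37), Cox4i1 (0.10), Cox5a (0.43), Cox7a2l (0.22), Cox7c (0.11), Cyc1 (0.44), Ndufa4 (0.27), Ndufv1 (0.18) and Uqcrc1 (0.20). DESeq2 gave 0 members risen, 104 promoters risen and 30 fallen in all, and in the region fit 0 member promoters and 0 distal regions fallen. Factors from all regions gave 0 members risen, 69 promoters risen in all and a member median of -0.14, with Ndufb8 at -0.045 and Ndufs1 at -0.048. The abundance offset gave 2 members fallen (Cox5b and Ndufb4) and 106 promoters fallen in all. In the region fit it gave 1 member promoter risen and 4 fallen, 3 distal regions fallen, and chrM values of -0.16 and -0.11, neither past the threshold. The width offset gave 4 members risen and 7 fallen, 864 and 693 in all, a member median of 0.014, and Cox5a at 0.019. With promoters of a mean of at least 50 tags, 2 members fell (again Cox5b and Ndufb4), with 328 promoters risen and 110 fallen in all. limma-voom gave 0 distal regions fallen. Ndufs1 was -0.0056 with library size only, -0.031 with the abundance offset, -0.071 with the width offset and -0.0049 with the mean of 50 tags. The chrM ratio of Fgf13cko to control was 0.371 over header totals against 0.514 over region tags, and the member share ratio 0.880 over nuclear tags against 0.951.

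Leaving out each library in turn gave 0 to 5 member promoters risen and 0 to 14 fallen, and 0 to 1376 risen and 0 to 1385 fallen in all. Both counts over all promoters were 0 without control 1 and 0 without control 2, where the lone control is assumed to vary like the Fgf13cko libraries. The member median ran from -0.17 to 0.033. In the region fit the ranges were 0 to 5 member promoters risen, 0 to 14 fallen, 1 to 12 distal regions risen and 0 to 6 fallen. The chrM fold changes ran from -2.235 to -1.67 (region from 10808) and from -2.21 to -1.67 (region from 93), and neither passed the threshold without control 1 or without control 2 (edgeR adjusted p from 0.306 to 0.354). Uqcrc2 did not pass it there either, nor in the region fit, with DESeq2 or with factors from all regions. Fits with a lone control have less power. Signs turned at Cox18 (-0.21 to 0.083), Cox5a (-0.12 to 0.076), Cox6a1 (-0.45 to 0.54), Cyc1 (-0.34 to 0.25), Ndufb8 (-0.14 to 0.19), Ndufs1 (-0.17 to 0.16) and Ndufv1 (-0.84 to 0.10).

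The replicate numbers were not treated as pairs in the main fit. The difference between numbers correlated at r = -0.15 across promoters between the groups. That value cannot decide if the numbers pair the samples, since both differences also went with region width. Over all promoters the correlation with width was r = 0.62 in Fgf13cko and -0.16 in the controls. With a replicate block, 1 member promoter rose and 1 fell (Cox5b), 89 promoters fell in all, and in the region fit 2 member promoters and 3 distal regions fell. With the crossed pairing, chosen after seeing the data, 2 members rose and 3 fell, against 546 and 277 in all, and in the region fit 1 member promoter rose and 4 fell and 4 distal regions fell.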

Other observations

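A region mapped to chromosome 1 (mm10, 24611613 to 24616124, intergenic, 26.4 kb from the start of Col19a1, the nearest gene) moved with the chrM tags. It held 1117 and 1555 tags in the controls and 285 and 313.5 in Fgf13cko, or normalised counts of 1101 and 1323 against 329 and 333. The log2 fold change was -1.87 (SE 0.21, adjusted p = 0.00385 in edgeR's quasi-likelihood test), beside -1.90 and -1.91 for the chrM regions. Without control replicate 1 it was -2.0 (adjusted p = 0.0262) and without control replicate 2 -1.73 (adjusted p = 0.0639). The region was singled out after its values were seen, and no gene of the respiratory chain is assigned to it. Its sequence was not compared with that of chrM. Tags of nuclear and of mitochondrial DNA can therefore not be told apart here, and the values do not show a change in chromatin.

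The start of Cox7a1, the muscle-type isoform of a complex IV subunit, had a deposited peak in both Fgf13cko lists and in neither control list. The lists differ in length, with 38006 and 47148 peaks in the controls and 64954 and 54373 in Fgf13cko, so such a pattern was not tested.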
